A study of Mus musculus with 20 samples.

Results

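The genes described here encode the proteases, and the subunits of proteases, that cut the amyloid precursor protein APP. They are the alpha-secretases Adam10 and Adam17, the beta-secretase Bace1 with its close relative Bace2, and, of the gamma-secretase complex, Psen2, Ncstn, Aph1a, Aph1b and Psenen. The 9 genes were chosen by name, with earlier results of these data known, out of 24421 genes counted in every library. Poly-A RNA of neocortex and hippocampus was sequenced from mice of 2 genotypes at 3 months of age, with 5 libraries in each of the 4 groups. The cTKO mice carry floxed alleles of App, Aplp1 and Aplp2 together with Camk2a-Cre, which deletes these genes in excitatory neurons of the forebrain after birth. The controls are littermates that carry the floxed alleles without Cre, although the sample labels call them wild type. Both sexes were used, on a hybrid background of C57BL/6J with another inbred strain group. The tissue was bulk, so cells without Cre contribute intact transcripts to every cTKO library.

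APP is a membrane protein that is cut in sequence. An alpha- or a beta-secretase first sheds its ectodomain, and gamma-secretase then cuts the remaining stub within the membrane. The beta and gamma cuts release amyloid-beta peptides, whereas the alpha cut falls inside that peptide, and both routes free the APP intracellular domain, a fragment that has been proposed to regulate genes, among them Bace1. The same enzymes also cut Notch receptors, neuregulins, cadherins and many other neuronal membrane proteins, and the APP relatives APLP1 and APLP2 are substrates as well. The comparison between genotypes therefore asks whether the transcripts of the cutting machinery differ when these substrates are lost, and the comparison between regions asks whether the machinery is transcribed alike in neocortex and hippocampus.

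Library totals ranged from 12169474 to 25331954 counts. Levels are given as CPM, the counts divided by library size after scaling with TMM (trimmed mean of M values) factors, as mean ± SD of 5 libraries. App averaged 1619 ± 123 CPM (n = 5) in control and 376 ± 30.7 CPM (n = 5) in cTKO neocortex, and 1522 ± 98.9 CPM (n = 5) in control and 442 ± 12.3 CPM (n = 5) in cTKO hippocampus, and every cTKO library lay under every control library. The summed level of 6 hippocampal neuron markers was 853 to 1176 CPM in hippocampal and 369 to 472 CPM in neocortical libraries, as the tissue labels say. Transcripts of 7 genes of embryonic tissue summed to 617 CPM in cTKO neocortex library 5 and 380 CPM in cTKO hippocampus library 4, against at most 2.65 CPM in any control library. The count of secretase genes called without these 2 libraries is given for each comparison they enter, and values of single genes and ratios only where stated. In the cTKO groups the 6 excitatory neuron markers had a median sum of 6757 CPM against 8090 CPM in control neocortex, and of 9482 CPM against 10389 CPM in control hippocampus. The sums did not speak for every marker, since 4 of the 6 had the higher mean in cTKO neocortex, and 3 of the 6 in cTKO hippocampus. All 4 markers of oligodendrocyte precursors had lower cTKO means in both regions, and their part in the results below was not tested. In bulk tissue, fewer cells of a type and less RNA per cell cannot be told apart.

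None of the secretase genes differed between genotypes at an FDR (Benjamini-Hochberg, over all genes tested with edgeR's quasi-likelihood test) under 0.05. In the neocortex 0 of 9 genes passed, where 0.188% of all 13843 genes tested did, and 0 passed an unadjusted p of 0.05, which 10.4% of all genes did. In the hippocampus 0 of 9 passed, against 0.489% of 13702 genes, and 1 of 9, Aph1b, passed an unadjusted p of 0.05, against 12% of all genes. For no secretase gene did the 5 cTKO libraries of a region separate from the 5 controls, which 2.39% of all genes did in neocortical and 3.01% in hippocampal libraries. DESeq2 also called 0 of 9 in each region. Without the 2 libraries with embryonic transcripts 0 of 9 passed in either region and in the interaction. The neocortical log2 fold changes of Adam10, Adam17 and Psen2 were then 0.05, 0.03 and 0.01, and the hippocampal one of Bace2 was 0.50. The background rested on single libraries, with 26 genes called in the neocortex and 67 in the hippocampus from all libraries, and from 7 to 133 and from 15 to 149 when 1 library was left out. The 9 genes had a median log2 fold change of -0.01 in neocortical and 0.02 in hippocampal tissue, against 0.01 and 0.00 for all genes. In the test of a difference of the genotype effects between the regions, 0 of 9 passed, with every FDR at 0.9999, against 0.0564% of 14192 genes, and 0 of 9 passed an unadjusted p of 0.05, against 3.75%.

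In controls 4 of 9 secretase genes differed between hippocampus and neocortex, 3 higher and 1 lower in the hippocampus, against 59.1% of all 13832 genes tested, with 29.8% higher and 29.2% lower. The control libraries of the regions were taken as pairs by replicate number, although no source ties a number to a mouse. With the number as a block 3 of 9 passed, 2 higher and 1 lower, without Aph1a. The exact permutation tests given below split the libraries without regard to the pairs. Over the 5 control pairs Adam10, Aph1a and Aph1b were higher and Ncstn lower in the hippocampus in 5 of 5, each with an exact paired p of 0.0625, the smallest that 5 pairs can give. In cTKO mice 3 of 9 differed, 2 higher and 1 lower, against 41.3% of 13846 genes, with 20.2% higher and 21.1% lower. The cTKO count was 1, Aph1b, with edgeR's exact test, with the replicate number as a block and in 6 of 10 fits that left out a library, and 2, Aph1b and Bace2, without the 2 libraries with embryonic transcripts. It was 4, with Bace2 added, in DESeq2. Aph1b carried by far the widest difference of the 9 in controls, and the median absolute log2 difference of the set, 0.12 in controls and 0.13 in cTKO mice, was under that of all genes, 0.28 and 0.27. RNA was extracted with one kit from neocortex and with another from hippocampus, so that kit and region cannot be told apart. The 6 astrocyte markers summed to 1148 to 1527 CPM in neocortical and 1916 to 4800 CPM in hippocampal libraries. The highest sum was that of cTKO hippocampus library 4, which holds embryonic transcripts, and the other hippocampal libraries reached at most 3165 CPM. The 6 striatum markers summed to 340 to 680 CPM in neocortical and 85.5 to 146 CPM in hippocampal libraries. The part of cell and tissue make-up in the regional differences was not tested.

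**Figure D1:**
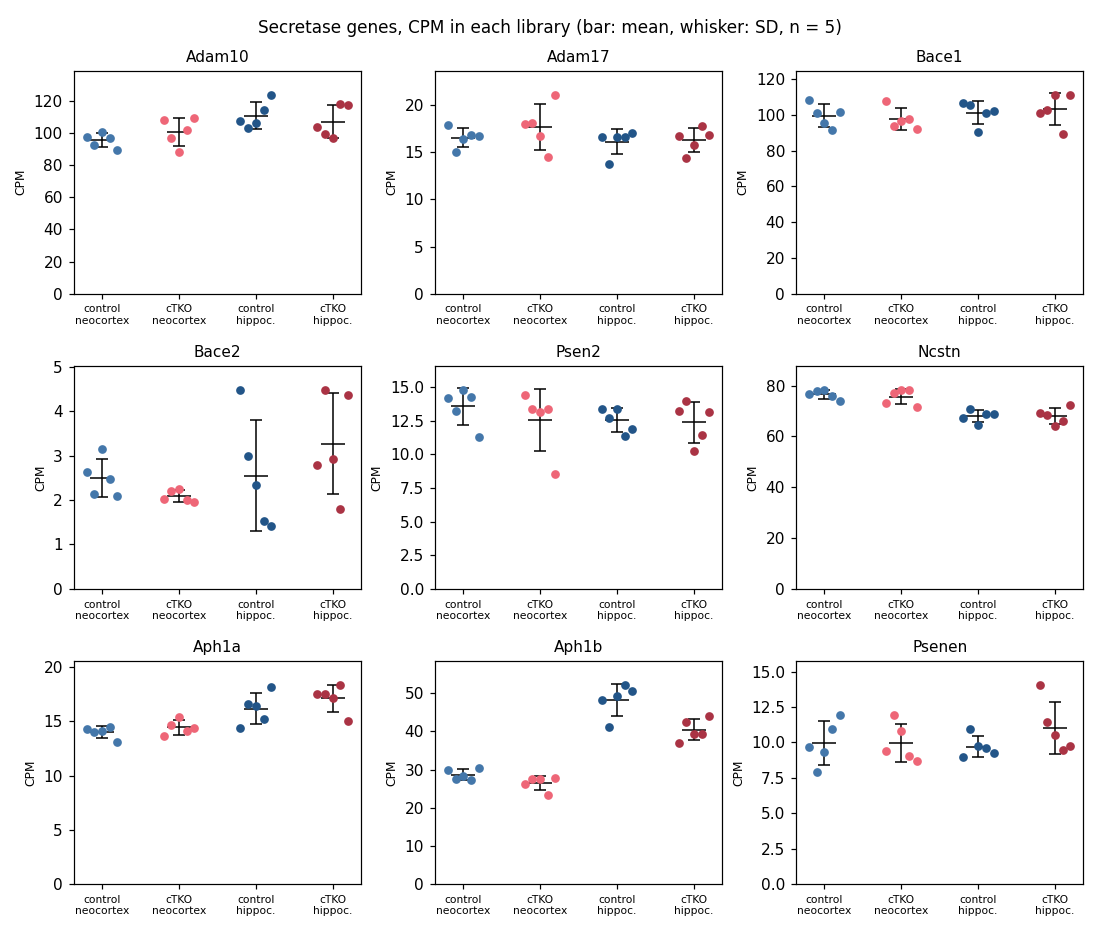
CPM of the 9 secretase genes (vertical axes, each from 0) in the 5 libraries of each group, with a bar for the mean and whiskers for the SD. Aph1b separates the regions in both genotypes, with 23.3 to 30.5 CPM in neocortex and 37.1 to 52.1 CPM in hippocampus, while the genotypes overlap for every gene.

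The alpha-secretase Adam10, a membrane metalloprotease that is the main constitutive alpha-secretase of neurons and also sheds Notch and cadherins, lies on chromosome 9 from 70678997 to 70780229 (GRCm38, plus strand). In control neocortex its 5 libraries held 97.9, 92.9, 100.4, 96.9 and 89.5 CPM, and in control hippocampus 107, 103, 106, 114 and 124 CPM. Every hippocampal control thus lay above every neocortical control, as it did, in either direction, for 44% of all genes. The log2 difference was 0.21 (SE 0.055), or 1.16-fold, with an FDR of 0.00409 and an exact permutation p of 0.00794, the smallest that splits of 5 against 5 can give. In cTKO mice the regions overlapped, at 101 ± 8.63 CPM (n = 5) in neocortex and 107 ± 10.1 CPM (n = 5) in hippocampus, with a log2 difference of 0.08 and an FDR of 0.502. The change of this difference between the genotypes was -0.12 (95% interval -0.33 to 0.08). Between genotypes Adam10 differed by a log2 value of 0.09 (interval -0.05 to 0.23) in the neocortex and -0.04 (interval -0.21 to 0.12) in the hippocampus.

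Adam17, also known as TACE, the sheddase of tumour necrosis factor that takes part in regulated alpha cleavage, lies on chromosome 12 from 21323509 to 21373632 (minus strand). It averaged 16.6 ± 1.02 CPM (n = 5) in control and 17.7 ± 2.39 CPM (n = 5) in cTKO neocortex, and 16.1 ± 1.33 CPM (n = 5) in control and 16.3 ± 1.26 CPM (n = 5) in cTKO hippocampus. It passed no comparison, and its log2 fold changes between genotypes were 0.10 (interval -0.11 to 0.31) and 0.02 (interval -0.17 to 0.21). Per kilobase of exon it made up 10.7% ± 0.612 (SD, n = 5) of the sum of Adam17 and Adam10 in control neocortex and 9.09% ± 0.566 (SD, n = 5) in control hippocampus. The log2 ratio of Adam17 to Adam10, which does not depend on library size, differed by -0.25 between control hippocampus and control neocortex, lower in the hippocampus with no overlap (exact permutation p = 0.00794, 1 of 16 unadjusted tests of ratios). Over the control pairs the ratio was lower in the hippocampus in 5 of 5 (exact paired p = 0.0625). In cTKO mice the ratio differed by -0.20 between the regions (exact permutation p = 0.0714), and by -0.15 without the 2 libraries with embryonic transcripts (exact permutation p = 0.171).

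Bace1, the aspartic protease that makes the beta cut and whose other neuronal substrates include neuregulins and sodium channel subunits, lies on chromosome 9 from 45838580 to 45864399 (plus strand). Its libraries held 109, 101, 95.3, 91.7 and 102 CPM in control neocortex and 108, 93.6, 96.9, 97.7 and 91.9 CPM in cTKO neocortex. In the hippocampus they held 107, 106, 90.5, 101 and 102 CPM in controls and 101, 103, 111, 89.4 and 111 CPM in cTKO mice. All 4 groups overlapped widely around 100 CPM. The log2 fold change between genotypes was -0.02 in the neocortex (interval -0.16 to 0.11, FDR 0.938) and 0.03 in the hippocampus (interval -0.12 to 0.18, FDR 0.918), so that a fold above 1.08 in the former and 1.14 in the latter, or below 0.898 and 0.920, lay outside the intervals. Between regions its log2 difference was 0.02 (interval -0.11 to 0.14) in controls and 0.07 (interval -0.10 to 0.23) in cTKO mice, and neither passed the test. In the annotation 32.5% of its exon bases are shared with genes on the opposite strand, Rnf214 among them, and without a stated strand setting the reads of those bases cannot be assigned to one strand.

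Bace2, the relative of Bace1 that is sparse in brain and can cut APP within the amyloid-beta sequence, lies on chromosome 16 from 97356742 to 97442936 (plus strand). It was the least abundant of the 9 genes, with 26 to 103 counts a library. Control hippocampus held 4.47, 3.00, 2.35, 1.53 and 1.41 CPM, and cTKO hippocampus 2.79, 4.49, 2.92, 1.80 and 4.37 CPM. Control neocortex held 2.63, 2.15, 3.14, 2.48 and 2.08 CPM, and cTKO neocortex from 1.95 to 2.25 CPM with a median of 2.03 CPM. The hippocampal libraries scattered much more than the neocortical ones, with a coefficient of variation of 49.0% in control and 34.8% in cTKO hippocampus against 17.1% and 6.20% in neocortex. The summed level of the 5 choroid plexus markers scattered in hippocampal libraries too, at 405, 489, 2684, 272 and 75.5 CPM in controls and 112, 145, 143, 186 and 598 CPM in cTKO mice, against at most 17.0 CPM in neocortex. The part of choroid plexus tissue in the Bace2 values was not tested. For Bace2 the log2 fold change between genotypes was -0.24 (interval -0.62 to 0.13) in the neocortex and 0.36 (interval -0.36 to 1.08) in the hippocampus, so that folds of 0.780 to 2.12 in the hippocampus lay within the interval.

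Between regions Bace2 differed in cTKO mice by a log2 value of 0.64 (interval 0.11 to 1.16) with an FDR of 0.0517, just above the threshold. Without the 2 libraries that hold embryonic transcripts the difference was 0.76 with an FDR of 0.0151. In controls the difference was 0.04 (interval -0.56 to 0.63), and it turned to -0.25 without control hippocampus library 1, the library with the highest level. Per kilobase of exon Bace2 was 1.99% ± 0.391 (SD, n = 5) of the sum of Bace1 and Bace2 in control neocortex and 1.70% ± 0.152 (SD, n = 5) in cTKO neocortex. In the hippocampus the share was 1.97% ± 0.876 (SD, n = 5) in controls and 2.46% ± 0.746 (SD, n = 5) in cTKO mice. The log2 ratio of Bace2 to Bace1 differed between regions by 0.48 in cTKO mice (exact permutation p = 0.0476, unadjusted over 16 tests), with overlapping libraries, and the p did not stay under 0.05 in 9 of 10 fits that left out a library. Without both libraries with embryonic transcripts the ratio differed by 0.61 (exact permutation p = 0.0286, the smallest that splits of 4 against 4 can give). In controls it differed by -0.10 (exact permutation p = 0.746).

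**Figure D2:**
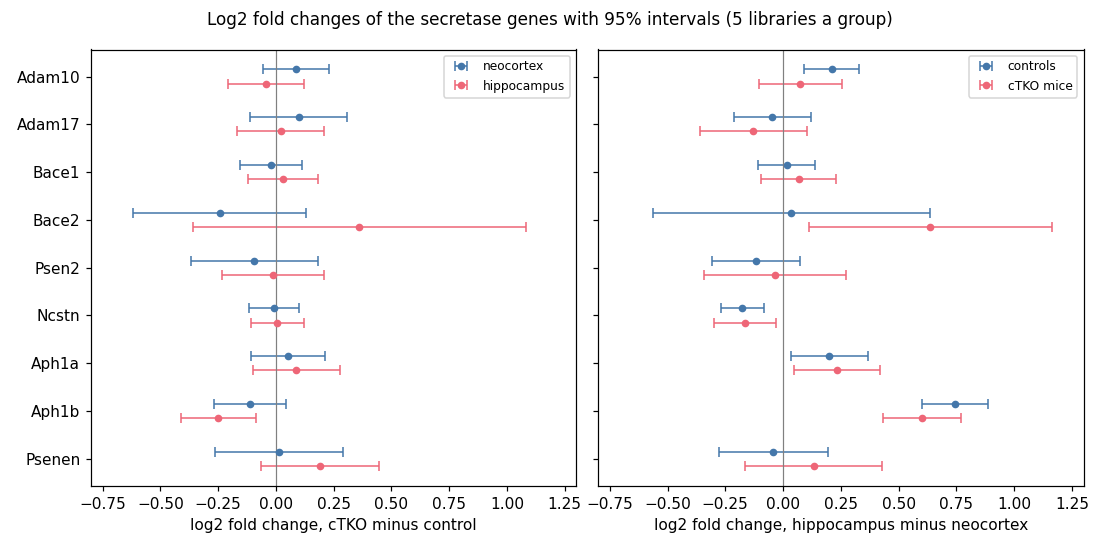
Log2 fold changes (horizontal axes) of the 9 secretase genes with 95% intervals from edgeR, between genotypes in each region (left) and between regions in each genotype (right). On the left the Aph1b interval in the hippocampus, -0.41 to -0.09, is the 1 that leaves out 0, with an FDR of 0.197, and on the right Aph1b lies farthest from 0 in controls.

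Of gamma-secretase, Psen2 encodes presenilin-2, a catalytic aspartic protease subunit found mainly in late endosomes and lysosomes, on chromosome 1 from 180227004 to 180263438 (minus strand). It averaged 13.6 ± 1.37 CPM (n = 5) in control and 12.6 ± 2.29 CPM (n = 5) in cTKO neocortex, and 12.5 ± 0.894 CPM (n = 5) in control and 12.4 ± 1.52 CPM (n = 5) in cTKO hippocampus. It passed no comparison, and its log2 fold changes between genotypes were -0.09 (interval -0.37 to 0.18) and -0.01 (interval -0.23 to 0.21). The lowest value of all, 8.57 CPM, was in cTKO neocortex library 5, which is 1 of the 2 libraries with embryonic transcripts.

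Ncstn, encoding nicastrin, the large glycoprotein that gates access of substrates to the complex, lies on chromosome 1 from 172066013 to 172082795 (minus strand). In control neocortex it held 76.9, 77.8, 78.4, 75.9 and 74.1 CPM, and in control hippocampus 67.2, 70.8, 64.6, 69.0 and 68.8 CPM. Every hippocampal control lay below every neocortical control, and the log2 difference was -0.18 (SE 0.043), or 0.885-fold, with an FDR of 0.00268. Ncstn was thus the 1 secretase gene called lower in the hippocampus. In cTKO mice the difference was -0.16 (SE 0.062) with an FDR of 0.0495, which became 0.0866 without the 2 libraries with embryonic transcripts, and the call was lost in 8 of 10 fits that left out a library. Between genotypes it was the most tightly measured of the 9, with log2 fold changes of -0.01 (interval -0.12 to 0.10) in the neocortex and 0.01 (interval -0.11 to 0.12) in the hippocampus.

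Psenen, encoding PEN-2, the small subunit needed for presenilin to mature into its active cut form, lies on chromosome 7 from 30561863 to 30563627 (minus strand). It averaged 9.96 ± 1.54 CPM (n = 5) in control and 9.98 ± 1.36 CPM (n = 5) in cTKO neocortex, and 9.69 ± 0.750 CPM (n = 5) in control hippocampus. In cTKO hippocampus its libraries held 14.1, 11.4, 10.5, 9.46 and 9.72 CPM, and library 1 was the highest of all 20. The log2 fold change between genotypes was 0.01 (interval -0.26 to 0.29) in the neocortex and 0.19 (interval -0.06 to 0.45) in the hippocampus, and Psenen passed no comparison. Of the 100-base windows in its transcripts, the length of a read, 14.0% also occur in Gm12396, and it is not stated how reads that fit several genes were counted.

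The APH-1 proteins are the scaffold on which the complex assembles, and each complex holds a single one. The mouse has Aph1a on chromosome 3 from 95893969 to 95898288 (plus strand), Aph1b on chromosome 9 from 66775202 to 66795490 (minus strand), and Aph1c, a tandem copy of Aph1b, on chromosome 9 from 66814994 to 66834726 (minus strand). Aph1c was followed here only because its reads could be mistaken for those of Aph1b. The coding sequences of Aph1b and Aph1c are identical at 745 of 770 aligned bases (96.8%), whereas Aph1a matches Aph1b at 68.4% of aligned bases. The stretch below, bases 52 to 151 of the coding sequence in the GENCODE M21 annotation, is shown because it lets a read tell the copies apart, and capitals mark the 11 bases at which they differ.
Aph1b: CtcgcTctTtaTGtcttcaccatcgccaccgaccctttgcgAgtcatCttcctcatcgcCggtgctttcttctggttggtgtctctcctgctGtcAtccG
Aph1c: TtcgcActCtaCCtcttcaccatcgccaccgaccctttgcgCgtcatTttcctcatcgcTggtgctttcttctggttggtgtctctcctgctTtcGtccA
Over the whole transcripts 8.58% of the 100-base windows of Aph1b also occur in Aph1c. RefSeq lists each of these names as a synonym of the other, so a row of the count files may follow either naming, and "Aph1b" below is the row of that name.

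The start regions of the copies differ more than their coding sequences. The RefSeq promoters (GRCm38.p6, 250 bases before to 50 after the start of the gene) of Aph1b, at chr9:66795374-66795673 on the minus strand, and of Aph1c, at chr9:66834657-66834956 on the minus strand, are identical at 179 of 238 aligned bases (75.2%). Aligned in the same way, the Aph1a promoter matches that of Aph1b at 68.7% and that of Aph1c at 69.3% of aligned bases. The table of RefSeq promoters held 7 of the 9 secretase genes. These 2 are shown because the copies differed in their regional pattern, and capitals mark matches, on either strand, to CCAAT and to the GC box GGGCGG.
Aph1b: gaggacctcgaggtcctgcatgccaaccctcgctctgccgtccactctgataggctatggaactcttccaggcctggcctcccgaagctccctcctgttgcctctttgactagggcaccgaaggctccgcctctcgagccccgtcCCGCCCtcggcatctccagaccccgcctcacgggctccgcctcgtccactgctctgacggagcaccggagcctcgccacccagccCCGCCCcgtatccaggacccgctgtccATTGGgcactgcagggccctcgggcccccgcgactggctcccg
Aph1c: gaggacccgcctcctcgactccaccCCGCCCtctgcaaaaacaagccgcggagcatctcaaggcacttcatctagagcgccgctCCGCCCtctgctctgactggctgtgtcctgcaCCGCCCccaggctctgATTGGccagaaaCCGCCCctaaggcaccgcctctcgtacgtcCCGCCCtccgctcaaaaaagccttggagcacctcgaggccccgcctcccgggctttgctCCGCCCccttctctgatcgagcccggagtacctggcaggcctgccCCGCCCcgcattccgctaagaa
The Aph1b promoter holds 2 GC boxes and the Aph1c promoter 7, where 35.7% of 32851 promoters hold at least 1, and each holds 1 CCAAT, as do 37.4% of promoters. Neither holds TATAAA (13.6% of promoters), CANNTG (72.3%) or TGACGTCA (1.79%) in this window, searched on both strands.

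Aph1b was the secretase gene with the clearest regional difference. In control neocortex its libraries held 29.8, 27.5, 28.4, 27.3 and 30.5 CPM, and in control hippocampus 48.2, 41.2, 49.3, 52.1 and 50.5 CPM. In cTKO neocortex they held 26.1, 27.5, 27.4, 23.3 and 27.8 CPM, and in cTKO hippocampus 37.1, 42.5, 39.3, 39.3 and 44.0 CPM. Every hippocampal library lay above every neocortical library, in both genotypes, as the groups did not overlap for 28.6% of all genes in cTKO mice. The log2 difference between regions was 0.74 (SE 0.068), or 1.67-fold (interval 1.52 to 1.85), with an FDR of 2.26e-07 in controls. In cTKO mice it was 0.60 (SE 0.078), or 1.52-fold (interval 1.35 to 1.71), with an FDR of 7.13e-05, and 0.63 (FDR 0.000395) without the 2 libraries with embryonic transcripts.

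Aph1c did not pass the same test, with 10.2 ± 0.791 CPM (n = 5) in control neocortex and 10.7 ± 1.19 CPM (n = 5) in control hippocampus, a log2 difference of 0.05 (interval -0.15 to 0.26) with an FDR of 0.652. In cTKO mice it held 9.71 ± 0.766 CPM (n = 5) in neocortex and 8.74 ± 2.26 CPM (n = 5) in hippocampus, a log2 difference of -0.17 (interval -0.53 to 0.19). The log2 ratio of Aph1b to Aph1c was higher in the hippocampus by 0.69 in controls and by 0.80 in cTKO mice, in each case with no overlap and an exact permutation p of 0.00794. Over the control pairs the ratio was higher in the hippocampus in 5 of 5 (exact paired p = 0.0625). Without the 2 libraries with embryonic transcripts the ratio differed by 0.87 in cTKO mice (exact permutation p = 0.0286). This ratio was added after the values had been seen. With the counts of the copies added together, the hippocampus was still higher by a log2 value of 0.59 (FDR 1.13e-06) in controls and 0.43 (FDR 0.00113) in cTKO mice, a sum that does not depend on how reads or names were divided between them.

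Between genotypes Aph1b came nearest to the threshold of the 9 genes. In the hippocampus it averaged 48.3 ± 4.23 CPM (n = 5) in controls and 40.4 ± 2.78 CPM (n = 5) in cTKO mice, and control library 2, at 41.2 CPM, lay within the cTKO range. The log2 fold change was -0.25 (SE 0.075, interval -0.41 to -0.09), with an unadjusted p of 0.00543 and an FDR of 0.197 (edgeR), and the exact permutation p over single-library levels was 0.0238, the lowest for genotype among 40 unadjusted tests of the levels of the 9 genes and Aph1c. It did not pass the FDR threshold in any of 22 alternative settings, over which the FDR ranged from 0.0763 to 0.410. Without the 2 libraries with embryonic transcripts the log2 fold change was -0.25 (FDR 0.240, edgeR). In the neocortex the log2 fold change was -0.11 (interval -0.27 to 0.05), and the difference between the regional effects was -0.13 (interval -0.34 to 0.08). All 5 endothelial, all 5 choroid plexus and all 4 oligodendrocyte precursor markers also had lower means in cTKO than in control hippocampus, as had 5 of 6 markers each of hippocampal neurons, neocortical neurons, oligodendrocytes and microglia. Control library 3 held the highest choroid plexus sum, 2684 CPM. Of the striatum markers 5 of 6 had higher means in cTKO hippocampus, as had 3 of 6 each of excitatory neurons, interneurons and astrocytes. The part of these cells and tissues in the Aph1b values was not tested.

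**Figure D3:**
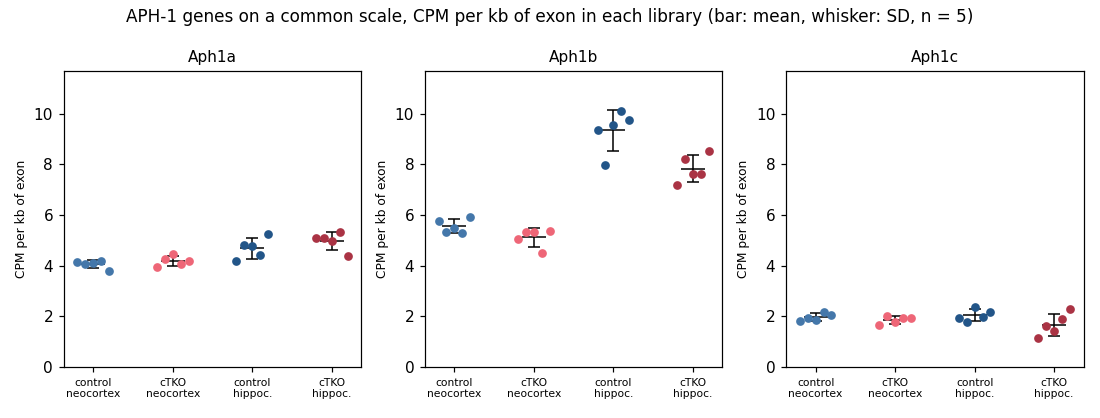
Levels of Aph1a, Aph1b and Aph1c on a common scale, in CPM per kilobase of exon (vertical axes), in the 5 libraries of each group, with a bar for the mean and whiskers for the SD. Aph1b rises from 5.56 in control neocortex to 9.35 in control hippocampus, while Aph1c lies at 1.97 and 2.05.

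Aph1a, the APH-1 gene whose loss is lethal to mouse embryos, held 14.3, 14.1, 14.1, 14.5 and 13.1 CPM in control neocortex and 14.4, 16.6, 16.4, 15.2 and 18.2 CPM in control hippocampus. The groups met at one library, hippocampus library 1. The log2 difference was 0.20 (SE 0.078) with an FDR of 0.0375 in controls and 0.23 (SE 0.085) with an FDR of 0.0432 in cTKO mice. These calls lay close to the threshold. With the replicate number as a block the control value was 0.19 with an FDR of 0.0589, it was also lost in 8 of 10 fits that left out a library, and the cTKO call was lost without the 2 libraries with embryonic transcripts (FDR 0.131). Between genotypes Aph1a differed by 0.05 (interval -0.11 to 0.21) in the neocortex and 0.09 (interval -0.10 to 0.28) in the hippocampus. Of its 100-base windows 34.7% also occur in another gene. By gene, 19.5% of the windows occur in Gm15429, and on the opposite strand 9.72% lie in Car14 and 5.42% in Jagn1. How such reads were counted is not stated.

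The balance of the APH-1 paralogues therefore shifted between regions. Per kilobase of exon Aph1b made up 57.7% ± 1.97 (SD, n = 5) of the sum of Aph1a and Aph1b in control neocortex and 66.5% ± 3.01 (SD, n = 5) in control hippocampus. In cTKO mice the share was 55.0% ± 1.57 (SD, n = 5) in neocortex and 61.2% ± 3.07 (SD, n = 5) in hippocampus. Per kilobase of coding sequence the control shares were 67.8% and 75.4% and the cTKO shares 65.3% and 70.8%, in the same order. The part in these shares of Aph1a windows that occur in other genes was not tested. The log2 ratio of Aph1b to Aph1a was higher in hippocampus by 0.54 in controls and 0.37 in cTKO mice (exact permutation p = 0.00794 in each, with no overlap). Over the control pairs the ratio was higher in hippocampus in 5 of 5 (exact paired p = 0.0625). The cTKO value was 0.42 without the 2 libraries with embryonic transcripts (exact permutation p = 0.0286). Between genotypes the ratio was lower in cTKO mice by a log2 difference of -0.16 in the neocortex and -0.34 in the hippocampus (exact permutation p = 0.0317 in each, unadjusted over 16 tests), with overlapping libraries, and each p rose to 0.0635 in 6 of 10 fits that left out a library. Without the 2 libraries with embryonic transcripts the differences were -0.18 (exact permutation p = 0.0317) in the neocortex and -0.30 (exact permutation p = 0.0556) in the hippocampus.

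Levels of different genes can be set against each other only per length. On CPM per kilobase of exon, control neocortex gave Adam10 at 19.4 ± 0.880, Ncstn at 19.3 ± 0.430 and Bace1 at 15.7 ± 1.02 (SD, n = 5 each). Psenen followed at 7.81 ± 1.21, Aph1b at 5.56 ± 0.278, Aph1a at 4.07 ± 0.153 and Psen2 at 3.13 ± 0.316. Adam17, at 2.32 ± 0.142, and Bace2, at 0.316 ± 0.0540, were lowest. On this scale Adam10, Bace1 and Ncstn formed the upper group, and the relatives Adam17 and Bace2 closed the order in all 4 groups. Adam10 and Ncstn overlapped in neocortex in both genotypes, Ncstn and Bace1 overlapped in hippocampus in both, and Psenen and Aph1b overlapped in hippocampus in both, where Aph1b reached 9.35 ± 0.819 in controls. Psen2 and Adam17 overlapped in the cTKO groups. Divided by coding length instead, Bace1 came first in every group, Ncstn fell to places 3 to 5 and Aph1b rose to places 2 to 4, and 18 of 36 places in the 4 orders stayed the same.

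**Figure D4:**
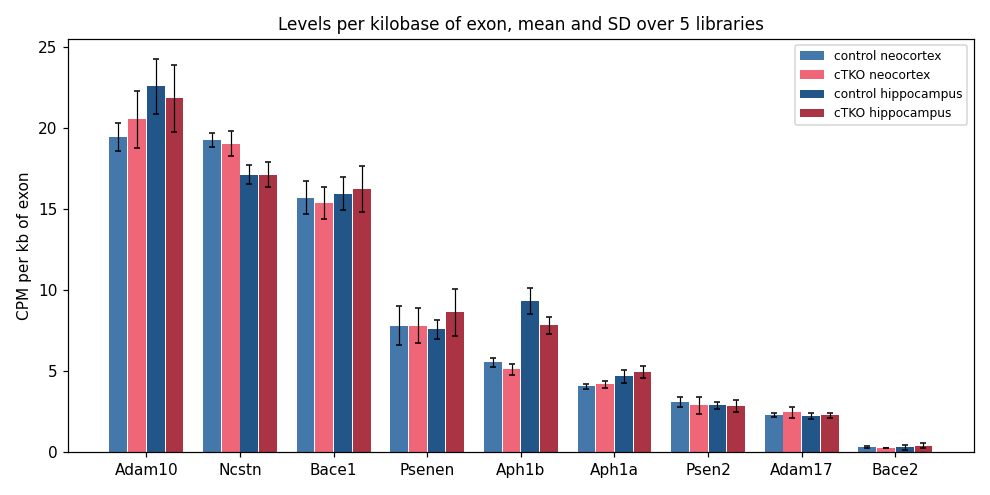
Mean level of each secretase gene in CPM per kilobase of exon (vertical axis, from 0) in the 4 groups, with whiskers for the SD over 5 libraries, ordered by control neocortex. Adam10, Ncstn and Bace1 lie between 15.4 and 22.6, and Bace2 reaches at most 0.415.

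The wider secretase network was followed in the same way. Of 78 genes in 6 lists of partners and substrates 75 were tested. Between genotypes 0 of 75 passed an FDR of 0.05 in either region, with edgeR's quasi-likelihood test, against 0.188% of all genes in the neocortex and 0.489% in the hippocampus. An unadjusted p of 0.05 was passed by 8 in the neocortex and 12 in the hippocampus, against 10.4% and 12% of all genes. Between regions 41 of 75 passed in controls, 20 higher and 21 lower in the hippocampus, against 59.1% of all genes. In cTKO mice 31 passed, 13 higher and 18 lower, against 41.3% of all genes. Without the 2 libraries with embryonic transcripts 1 of 75 genes passed between genotypes in each region. Of all genes 133 of 13763 then passed in the neocortex and 66 of 13643 in the hippocampus. Timp2, a metalloprotease inhibitor, was higher in cTKO neocortex by a log2 value of 0.54 (FDR 0.0287), and Jag1, a Notch ligand, was lower in cTKO hippocampus at -0.55 (FDR 0.0425), both named after their values were seen. The regional count in cTKO mice was then 30 of 75, against 5093 of all 13555 genes. Of the 30, 28 were also called with all libraries, while Dcc, Heyl and Notch4 lost the call. These lists were written with earlier results known.

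Among alpha-secretase partners 3 of 15 tested genes were higher and 5 lower in control hippocampus, against 29.8% and 29.2% of all genes. Their median log2 difference was -0.15 against 0.01 for all genes. Timp4, a metalloprotease inhibitor, was higher by 0.97 (FDR 4.84e-07) and Tspan15, a tetraspanin that escorts ADAM10 to the membrane, by 0.64 (FDR 8.32e-05), while Adam19, another metalloprotease, fell by 0.86 (FDR 5.31e-07). In cTKO mice 2 were higher and 5 lower, against 20.2% and 21.1% of all genes, led by Tspan15 at 0.94, Adam19 at -0.92 and Timp4 at 0.87.

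Among beta-secretase partners 3 of 12 were higher and 2 lower in control hippocampus, against 29.8% and 29.2% of all genes. Their median was -0.06. The retromer subunits Vps29 and Vps35, which return cargo from endosomes, were higher by 0.67 (FDR 7.84e-06) and 0.49 (FDR 4.51e-06), and Gga3, an adaptor that sorts BACE1 towards lysosomes, was lower at -0.40 (FDR 0.000189). The cTKO mice gave 2 higher and 1 lower, the same genes, at 0.61, 0.47 and -0.38, against 20.2% higher and 21.1% lower of all genes. Among the gamma-secretase partners and relatives 2 of 10 were higher and 3 lower in control hippocampus, led by Arrb1, a beta-arrestin, at -0.51, Rer1, a retrieval receptor that acts in the assembly of the complex, at 0.37, and Sppl2a, an intramembrane protease related to presenilin, at 0.28. In cTKO mice 1 was higher and 1 lower, Rer1 at 0.28 and Arrb1 at -0.45. The medians of the gamma-secretase list were 0.09 in controls and 0.08 in cTKO mice, and the shares of all genes are those given for the beta-secretase partners.

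For the lists that follow, 29.8% of all genes were higher and 29.2% lower in control hippocampus. In cTKO mice these shares were 20.2% and 21.1%. Of 15 beta-secretase substrates 5 were higher and 4 lower in control hippocampus, with a median of -0.03. Scn4b, a sodium channel beta subunit, was lower at -3.05 (FDR 1.80e-11) and Nrg1, the neuregulin whose cleavage drives myelination, at -1.88 (FDR 2.17e-08), while Cachd1 was higher at 1.52 (FDR 6.69e-09). The striatum markers were also lower in hippocampal libraries, and the part of striatal tissue in these values was not tested. In cTKO mice 4 were higher and 4 lower, with the same genes in front at -3.18, -1.71 and 1.33. Of 16 alpha- and gamma-secretase substrates 6 were higher and 7 lower in control hippocampus, with a median of 0.08, led by Epha4, an ephrin receptor, at 0.84, Lrp1, a lipoprotein receptor, at -0.81 and Dll1, a Notch ligand, at 0.79. In cTKO mice 4 were higher and 6 lower, led by Epha4 at 1.18, Ngfr at -1.10 and Erbb4 at -0.73. Of 7 Notch target genes 1, Nrarp, was higher in control hippocampus than in control neocortex at 0.32 (FDR 0.0274). In cTKO mice 1, Heyl, was lower in the hippocampus than in the neocortex at -0.60 (FDR 0.0477), and at -0.51 (FDR 0.131) without the 2 libraries with embryonic transcripts. Between genotypes 0 of 7 passed in either region.

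Variation among the libraries within groups was compared last. After the mean of each of the 4 groups was subtracted, Pearson's r of log2 CPM between members over 20 libraries ran from -0.51 for Adam10 with Psenen to 0.57 for Adam17 with Aph1b, a description only, since the points share depth and RNA preparation. Over 10021 genes with a mean CPM above 10 (10022 for Bace2), the closest companions were Xpo7 (r = 0.90) and Nhsl2 (0.89) for Adam10, Ap5m1 (0.76) and Slc35a3 (0.75) for Adam17, and Ptpre (0.86) and Gad1 (0.84) for Bace1. They were Wnt4 (0.83) and Chp1 (0.78) for Bace2, Smim19 (0.85) for Psen2, and B630019K06Rik (0.86) and Scamp4 (0.81) for Ncstn. For the remaining members they were Msrb1 (0.77) and Ngdn (0.74) for Aph1a, Rnf169 (0.76) and Bpnt1 (0.72) for Aph1b, and Sssca1 (0.89) and Rita1 (0.84) for Psenen. Without the 2 libraries with embryonic transcripts, 7 of 18 companions, 2 for each member, stayed among the closest pair of their member.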

How the data were processed

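Gene counts per library were deposited by the authors as whole numbers, raw and not normalized. Per the study's methods, poly-A libraries (Illumina TruSeq, strand not stated) were sequenced as 100-base single-end reads, aligned to mm10 with STAR 2.5.4a and counted with HTSeq, whose mode and strand setting are not given in the sources used here. Reads shared by overlapping or near-identical genes may therefore be lost or divided. Neocortex and hippocampus were extracted with different kits.

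Each comparison was fitted with edgeR 4.0.16 (R 4.3.3) on the deposited counts, with TMM factors, a filter of CPM above 1 in at least 5 libraries, the quasi-likelihood test, and Benjamini-Hochberg adjustment over all genes tested. Genotypes were compared within each region, regions within each genotype, and the interaction over 20 libraries. Counts were simulated for 3 of the comparisons, with 200 genes changed 1.5-fold. The fit recovered 70.5% of these between genotypes in the neocortex, 68.5% in the hippocampus and 82.5% between regions in controls. Of the genes called, 5.37%, 3.52% and 7.3% were false. Changes smaller than 1.5-fold, the regions in cTKO mice and the interaction were not simulated. Single-library levels and ratios of log2 CPM (prior count 2) used two-sided exact permutation tests over every split of 5 against 5. Exact tests over the control pairs, and the partner genes with the block and without 2 libraries, were added after the values were seen. The alternatives were other tests (DESeq2 1.42.0 among them), size factors, filters, covariates, a replicate block, and leaving out libraries. Levels per kilobase used GENCODE M21 exons (GRCm38), in place of the RefSeq lengths foreseen. No pair of replicates agreed within sampling noise, with a chi-square per degree of freedom of 3.82 to 46.1. Labels do not say that libraries are separate animals, though the methods give 5 mice per genotype. Same-numbered control libraries of the 2 regions deviated together (r from 0.129 to 0.334), and the numbers were taken as pairs. Same-numbered control and cTKO libraries of the neocortex, from different mice, also deviated together for numbers 1 to 3 (r from 0.148 to 0.221). What the numbers mark was not tested. At 12169474 to 25331954 counts a library, 3 counts correspond to 0.123 to 0.248 CPM.

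The 9 genes, the partner lists and the naming rule (all 9 genes, App, Aph1c, the 2 closest companions of each, and the 3 widest called genes of each list and region comparison) were chosen with earlier results of these data known. The second companion of Psen2 is not reported here.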

Additional observations from a re-analysis of the deposited data

Results flagged for a closer look

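Of 36 groups of 5 libraries (9 genes in 4 groups), 2 held a library far from the others by Dixon's criterion at the 95% level, where chance alone marks about 1 in 20 groups. Adam17 was at 13.8 CPM in control hippocampus library 2, against 16.6 to 17.1 CPM in the other libraries of the group. Psen2 was at 8.57 CPM in cTKO neocortex library 5, on 114 counts, against 13.1 to 14.4 CPM in the other libraries of the group. That library is 1 of the 2 with transcripts of embryonic tissue, and the part of those transcripts in the Psen2 value was not tested.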

How the results depend on the processing

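The count of secretase genes past the threshold stayed at 0 for both genotype comparisons (21 alternatives each) and for the interaction (29 alternatives), and at 3 to 4 for the regions in controls. For the regions in cTKO mice it was 3, and 1, Aph1b, with edgeR's exact test, with the Xist level as a covariate and with the replicate block, from 1 to 3 when a library was left out, and 4 with DESeq2 (Bace2, Ncstn, Aph1a and Aph1b). Bace2 passed in 6 of 21 alternatives there. The cause of these changes was not tested. Aph1b passed between regions in all 22 alternatives in each genotype. The regional fold change of Bace2 in controls was 0.04, -0.25 without control hippocampus library 1, and at most 0.19 without another library.

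Leaving out a library moved the log2 ratio of Adam17 to Adam10 between regions in cTKO mice from -0.27 to -0.16, that of Bace2 to Bace1 in cTKO mice over a range of 0.35 to 0.62, and that of Aph1b to Aph1a between genotypes from -0.19 to -0.12 in the neocortex and from -0.41 to -0.29 in the hippocampus. The p moved across 0.05 in 1 of 10 fits for the first, in 9 of 10 for the second and in 6 of 10 in each region for the third. Coding length in place of exon length kept 18 of 36 places, and 7 of 18 companions stayed without the libraries with embryonic transcripts.

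In the replicate block the 9 genes gave 0 calls for genotype in either region, 3 for the regions in controls and 1 in cTKO mice. The control libraries of the regions were taken as pairs by number, and there the block removed the call of Aph1a and of no other secretase gene. In the cTKO regions numbers 1 to 3 deviated together (r from 0.319 to 0.396) and numbers 4 and 5 did not (r of -0.06 and -0.07). The numbers were thus not shown to pair the cTKO libraries, although both regions came from the same mice. Between genotypes same-numbered libraries come from different mice. In the neocortex numbers 1 to 3 nevertheless deviated together (r from 0.148 to 0.221), while in the hippocampus r ran from -0.14 to 0.14. What the numbers mark was not tested. In alternatives added after the values were seen, the partner genes gave 42 calls with the block in control and 31 in cTKO regions, and without the 2 libraries with embryonic transcripts 1 for genotype in each region in place of 0.

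The background counts between genotypes depend on the test and on single libraries. Between genotypes 26 genes in the neocortex and 67 in the hippocampus passed in the quasi-likelihood test, 163 and 257 in the exact test, 167 and 259 in the likelihood ratio test, and 221 and 331 with DESeq2. In the neocortex 42 passed with no filter, 12 with the block and 133 without the libraries with embryonic transcripts, and in the hippocampus 189 in one fit of all 20 libraries. For the interaction 8 passed, 26 in the likelihood ratio test and with DESeq2, 18 with the block, and 5 to 20 when a library was left out. Leaving out a library gave 7 to 133 in the neocortex and 15 to 149 in the hippocampus, the highest without cTKO library 5 of the region and, in the hippocampus, the lowest without control library 4. Depth limits Bace2, with 26 to 103 counts a library.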
